A study of Mus musculus with 4 samples.

Results

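Mitochondrial ribosomal protein genes encode the proteins of the ribosome that works inside mitochondria, and 77 of them were found among the 19938 genes measured in mouse haematopoietic stem and progenitor cells. They were taken by name: a gene symbol that starts with Mrpl or Mrps and goes on with a digit, measured by a probe set with exactly 1 gene symbol, with pseudogene symbols left out. Mrpl53 shares its probe set with Ccdc142 and is not among them. By symbol, 48 belong to the large subunit (Mrpl) and 29 to the small subunit (Mrps). Mrps30 and Mrps18a are counted here with the small subunit by symbol, although both proteins sit in the large subunit. Mrps36, although named as a ribosomal protein, is better known as a part of the 2-oxoglutarate dehydrogenase complex.

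The cells came from bone marrow of mice of the strain C57BL/6 (B6) at the age of 8 weeks and were sorted by the gate Lin-c-Kit+Sca-1+ (no lineage markers, both stem cell antigens), which the labels call HSCs and which as a gate also holds multipotent progenitors. The comparison was between wild-type (WT) cells and cells labelled Hif1a-/-. Hif1a encodes a transcription factor subunit that is stabilised at low oxygen. Each genotype had 2 arrays, titled biological replicates 1 and 2. The labels name no Cre driver, no deleted exon and no pooling of animals, and they do not say what arrays with the same number share. The p-values given here therefore measure only the spread between these arrays.

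The mitochondrial ribosome translates the few proteins encoded by mitochondrial DNA, which are core subunits of the respiratory chain and of ATP synthase. Its RNA is made in the mitochondrion, but all of its proteins are encoded in the nucleus, made in the cytosol and imported. Many of these proteins descend from those of bacterial ribosomes, and others occur only in mitochondria. Resting HSCs are known for their reliance on glycolysis and for keeping mitochondrial respiration low.

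The values are log2 signals, so that a difference of 1 is a 2-fold change, and pairs of signals are given for arrays 1 and 2 of WT and then for arrays 1 and 2 labelled Hif1a-/- (called Hif1a-/- for short). Over all probe sets the array medians lay between 8.19 and 8.35, and the interquartile range was widest in WT array 2 (2.78, against 2.49 to 2.61 in the other arrays). The signal of Hif1a was 10.37 (array 1) and 10.99 (array 2) in WT, against 10.58 and 10.64 in Hif1a-/-, a difference of −0.08 (SE 0.24), which is no check of the genotype because the probe set may lie outside the deleted part. Kit, the receptor used in the sort, was at 12.57 and 12.37 in the arrays numbered 1 and at 11.51 and 11.32 in those numbered 2 (WT first). Of 10 measured stem cell markers 5 passed as lower in the arrays numbered 2 and 0 as higher in limma (adjusted p under 0.05), and among all genes 2.93% passed as lower and 3.81% as higher. Of 13 neutrophil markers 9 passed as higher in number 2. Their summed linear signal was 39226 and 32567 in number 1 and 75013 and 96630 in number 2 (WT first, as in the pairs by number that follow). Of 12 mast cell and basophil markers 9 passed as higher, with 6672 and 8529 in number 1 and 24975 and 25722 in number 2. The dimmest of these, such as Fcer1a, the receptor for immunoglobulin E, at 6.13 and 6.19 in number 1, have no detection call in the table. Of 9 measured B cell markers all 9 were higher in the mean of the arrays labelled Hif1a-/-, 5 of them with an unadjusted p under 0.05 in limma (0.727% of all genes) and 0 with an adjusted one, and their summed linear signal was 10011 and 9606 in WT, against 23644 and 14708 in Hif1a-/-. All 6 macrophage markers were higher in the mean of number 2 and 4 passed, with a summed linear signal of 3735 and 3474 in number 1 and of 6984 and 7693 in number 2. Of 8 measured markers of T and NK cells all 8 had a higher mean in the arrays labelled Hif1a-/-, 0 of them with an unadjusted p under 0.05 in limma. Their summed signals were 1378 and 1874 in WT, against 1497 and 2708 in Hif1a-/-. Between the numbers, 7 of these 8 had a higher mean in number 2, and 2 passed as higher. In bulk RNA, fewer cells of a type and less RNA per cell cannot be told apart.

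Promoter windows of 4 members are shown, picked by their values. Mrpl9 had the smallest p between the genotypes, although it did not pass, and Mrpl32 the largest genotype difference in number 2. Mrpl20 had the largest mean difference between the numbers. Mrps21 alone was higher in both arrays labelled Hif1a-/- than in the WT array of the same number. Each window runs 5′ to 3′ from 250 bases before to 50 bases after the annotated start (RefSeq, GRCm38.p6). Capitals mark matches, on either strand, to TGCGCATGC (the core bound by NRF1, a regulator of nuclear genes for mitochondria), CCGGAAG (bound by ETS factors, GABP among them), AAGATGGC (bound by YY1), the E box CACGTG and CCAAT.
Mrpl9, chr3:94443086-94443385, plus strand: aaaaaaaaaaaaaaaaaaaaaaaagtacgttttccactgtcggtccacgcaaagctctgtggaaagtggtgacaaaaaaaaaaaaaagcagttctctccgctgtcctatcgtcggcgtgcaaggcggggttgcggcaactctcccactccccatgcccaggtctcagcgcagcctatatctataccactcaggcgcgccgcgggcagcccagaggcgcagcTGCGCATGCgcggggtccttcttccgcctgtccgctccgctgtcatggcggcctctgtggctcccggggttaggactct
Mrpl32, chr13:14612988-14613287, minus strand: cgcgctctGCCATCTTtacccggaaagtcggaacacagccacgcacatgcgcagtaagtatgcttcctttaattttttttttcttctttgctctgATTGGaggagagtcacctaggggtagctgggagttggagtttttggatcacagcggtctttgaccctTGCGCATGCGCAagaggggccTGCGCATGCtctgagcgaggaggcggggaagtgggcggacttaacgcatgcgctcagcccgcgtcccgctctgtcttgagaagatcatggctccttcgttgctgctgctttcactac
Mrpl20, chr4:155802628-155802927, plus strand: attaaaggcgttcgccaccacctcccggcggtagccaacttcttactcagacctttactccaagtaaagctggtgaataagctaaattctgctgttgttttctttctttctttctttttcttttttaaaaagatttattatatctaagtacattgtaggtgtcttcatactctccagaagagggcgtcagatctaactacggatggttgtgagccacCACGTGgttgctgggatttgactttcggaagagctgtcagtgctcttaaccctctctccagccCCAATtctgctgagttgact
Mrps21, chr3:95871465-95871764, minus strand: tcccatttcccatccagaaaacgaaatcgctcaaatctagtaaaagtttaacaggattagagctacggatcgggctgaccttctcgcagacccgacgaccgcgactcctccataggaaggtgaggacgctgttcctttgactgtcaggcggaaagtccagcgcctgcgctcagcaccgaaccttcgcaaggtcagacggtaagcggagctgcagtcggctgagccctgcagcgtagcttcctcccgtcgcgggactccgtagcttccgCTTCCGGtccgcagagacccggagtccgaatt
The Mrpl32 window holds 5 matches, 3 of them to the NRF1 core and 2 of these overlapping in a palindrome. The Mrpl9 window holds 1 match to the NRF1 core, the Mrps21 window 1 to the ETS motif, and the Mrpl20 window 1 each to the E box and to CCAAT.

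Motifs of the factors known for nuclear genes of mitochondria were more frequent in these windows than in all windows of the table. A window was found for 68 of the 77 members, 74 windows in all, on 16 chromosomes, and not for Mrpl4, Mrpl13, Mrpl15, Mrpl19, Mrpl38, Mrpl54, Mrps28, Mrps34 and Mrps35. The ETS motif was in 25 of the 74 (33.8%, against 8.86% of all 32851 windows), the YY1 motif in 12 (16.2% against 2.75%) and the NRF1 core in 6 (8.11% against 1.52%). The GC box GGGCGG was in 39 (52.7% against 35.7%), and the windows were richer in G and C (median 58.5% against 52.7%). ACGTG, the core of the element bound by HIF-1 and also part of the E box, was in 19 (25.7% against 19.6%), the E box in 7 (9.46% against 7.15%), CCAAT in 29 (39.2% against 37.4%) and the TATA box TATAAA in 5 (6.76% against 13.6%). A match is a stretch of letters and not a measured binding site, and these shares are given without a test.

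Nearly all members had their highest signal in WT array 2. The median of the 77 members was 9.62 in WT array 1, 9.83 in array 1 labelled Hif1a-/-, 10.23 in WT array 2 and 9.70 in array 2 labelled Hif1a-/-. In rank terms, the median member stood at percentile 70.4 of all genes in WT array 1, 74.5 in array 1 labelled Hif1a-/-, 80.0 in WT array 2 and 73.8 in array 2 labelled Hif1a-/-. WT array 2 was the highest of the 4 arrays for 74 members (96.1%), against 27.0% of all genes. The exceptions were Mrpl24, which was highest in WT array 1, and Mrps16 and Mrps21, which were highest in array 2 labelled Hif1a-/-. The median fold of WT array 2 over WT array 1 was 1.47.

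**Figure D1:**
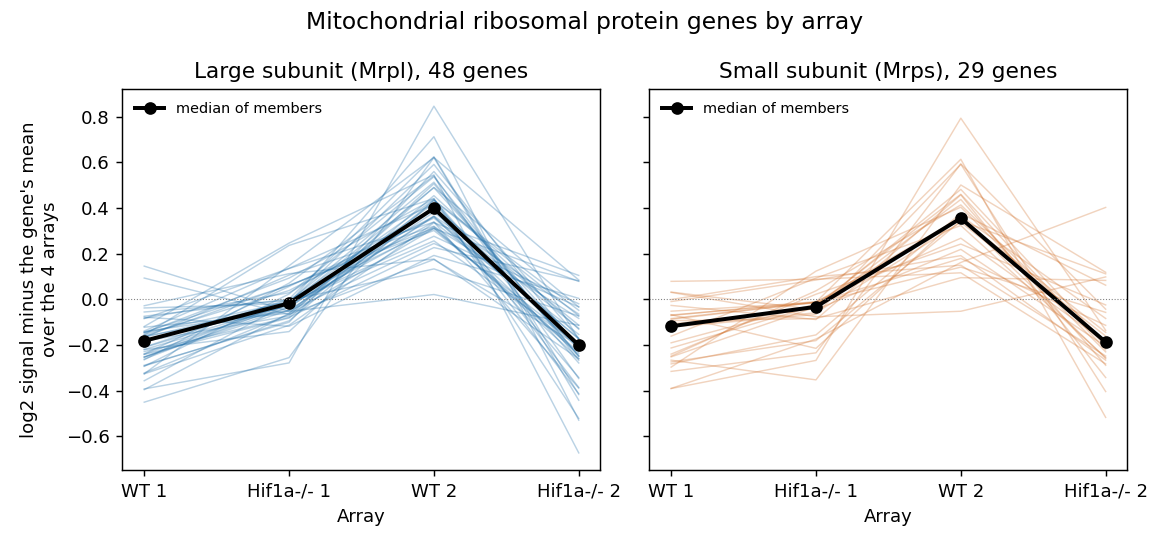
Each thin line is a gene, with its log2 signal minus its mean over the 4 arrays on the vertical axis and the arrays on the horizontal axis, for the large subunit (left, 48 genes) and the small subunit (right, 29 genes), and the black line is the median of the members. WT array 2 stands above the other arrays in both panels, and is the highest array for 74 of the 77 genes.

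Between the genotypes no member passed the test, and the direction depended on the replicate number. In the mean over both numbers 73 of 77 members were lower in the arrays labelled Hif1a-/- (94.8%, against 49.4% of all genes), with a median of −0.21 log2 units against 0.00 for all genes. In number 1, 69 members were higher in the array labelled Hif1a-/- than in the WT array (89.6%, against 55.3% of all genes), by a median of 0.15 log2 units or 1.11-fold. In number 2, 75 members were lower (97.4%, against 49.0%), by a median of −0.53, which makes the WT array 1.45-fold higher. Higher in number 1 and lower in number 2 were 68 members (88.3%, against 28.0% of all genes). Of the rest, 7 were lower in both numbers, Mrps21 was higher in both, and Mrps16 was lower in number 1 and higher in number 2. With limma, 0 members and 0% of all genes had an adjusted p under 0.05, and 0 members had an unadjusted p under 0.05, against 145 of all genes (0.727%). Without WT array 1, which leaves WT array 2 alone against the arrays labelled Hif1a-/-, 18 members had an unadjusted p under 0.05 in limma (23.4%, against 2.98% of all genes) and 0 an adjusted one. The smallest unadjusted p of a member was 0.0881, and the 95% intervals of all 77 differences held 0. The arrays overlapped between genotypes for 72 members: for 5 the pair labelled Hif1a-/- lay wholly beneath the WT pair (6.49%, against 8.33% of all genes) and for 0 it lay wholly over it (against 16.1%). Without WT array 2 the members' median was 0.09, and without array 1 labelled Hif1a-/- or WT array 1 it was −0.31 and −0.47, and without array 2 labelled Hif1a-/- it was −0.12. After quantile normalization it was −0.13, with 67 members lower, and after cyclic loess −0.14, with 68 lower.

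**Figure D2:**
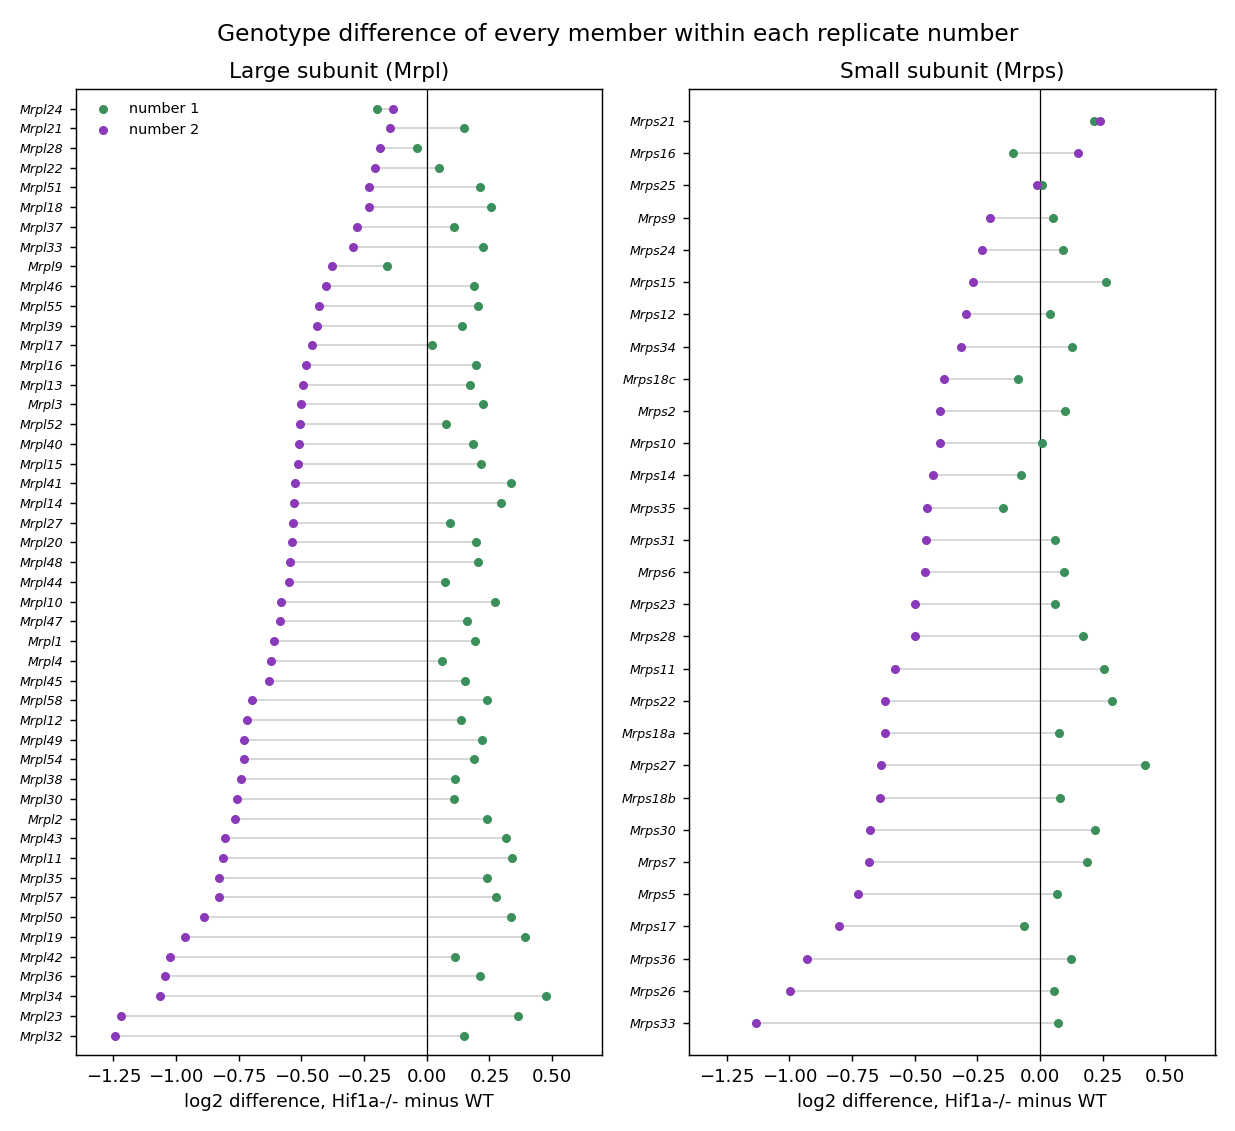
For every member, the horizontal axis gives the log2 difference between the array labelled Hif1a-/- and the WT array of the same number, in number 1 (green) and number 2 (purple), with the large subunit on the left and the small subunit on the right. In number 1, 69 of the 77 points lie above 0, and in number 2, 75 lie below it.

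The 5 members without overlap, all lower in Hif1a-/-, were Mrpl9, Mrpl24, Mrps14, Mrps17 and Mrps35. They were 6.49% of the members, against 8.33% of all genes. Mrpl9, a large-subunit protein with a bacterial counterpart, read 9.99 (array 1) and 10.07 (array 2) in WT, against 9.83 and 9.70 in Hif1a-/-. The WT arrays were the higher ones, and the difference of −0.27 (SE 0.12, 95% interval −0.60 to 0.06) did not pass in limma (unadjusted p 0.0881). Mrps17, a small-subunit protein with a bacterial counterpart, read 8.50 and 8.98 in WT, against 8.44 and 8.18 in Hif1a-/-. Its WT array 1 and array 1 labelled Hif1a-/- were close, and WT array 2 stood apart, for a difference of −0.43 (SE 0.22). Mrps14, likewise of bacterial descent, had 9.28 and 9.47 against 9.20 and 9.04, a difference of −0.25 (SE 0.14). Mrps35, a protein of the small subunit that bacteria lack, had 9.30 and 9.73 against 9.15 and 9.28. In it the WT array 1 and array 2 labelled Hif1a-/- nearly met, with a difference of −0.30 (SE 0.19). Mrpl24, known in bacteria as an early assembling protein of the large subunit, was the flattest of the 5, with 10.33 and 10.21 against 10.13 and 10.07 and a difference of −0.17 (SE 0.12).

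The widest genotype differences were those of number 2, where 6 members were lower in the array labelled Hif1a-/- by more than 1 log2 unit (7.79%, against 0.622% of all genes). Mrpl32, a large-subunit protein that is cut to its mature form by a mitochondrial protease, read 8.64 (array 1) and 9.52 (array 2) in WT, against 8.79 and 8.28 in Hif1a-/-. WT array 2 was the highest and array 2 labelled Hif1a-/- the lowest, with 0.15 in number 1, −1.24 in number 2 and −0.55 in the mean (SE 0.38). Mrps33, which is special to mitochondria, had 9.52 and 10.22 against 9.59 and 9.09, and so 0.07 in number 1 and −1.13 in number 2 (mean −0.53, SE 0.32). Mrps26, also special to mitochondria, was not among the 6, with −0.996 in number 2. Its signals were 9.25 and 9.97 against 9.31 and 8.97 (mean −0.47, SE 0.30). For Mrps33 and Mrps26, the arrays numbered 1 were within 0.1 log2 units of each other while those numbered 2 were far apart. Mrpl23, whose bacterial counterpart lies at the exit of the peptide tunnel, had 11.14 and 11.81 against 11.51 and 10.59, with 0.37 in number 1 and −1.22 in number 2. In all, 33 members were at least 1.5-fold higher in the WT array of number 2 than in its partner (42.9%, against 6.06% of all genes).

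Only 4 members were higher in the mean of the arrays labelled Hif1a-/-, and the sign was not stable for any of them when single arrays were left out. Mrps21, the counterpart of a bacterial protein that lies near the site of start-codon selection, read 11.45 (array 1) and 12.00 (array 2) in WT, against 11.66 and 12.24 in Hif1a-/-. It was higher by 0.22 in number 1 and by 0.24 in number 2, yet the genotypes overlapped, as the array-2 signals of both genotypes were above the array-1 signals (mean 0.23, SE 0.30, 95% interval −0.61 to 1.07). Mrps16, another protein of bacterial descent, had 10.64 and 10.55 against 10.53 and 10.71. Its arrays lay within 0.2 log2 units and it was among the members that differed least (0.02, SE 0.13). Mrpl18, which in bacteria binds the small ribosomal RNA of the large subunit, had 10.37 and 11.00 against 10.63 and 10.77, and Mrpl21 had 8.14 and 8.60 against 8.29 and 8.45. Their mean differences were 0.01 (SE 0.25) and 0.00 (SE 0.20), and in both WT array 2 was the highest and WT array 1 the lowest.

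**Figure D3:**
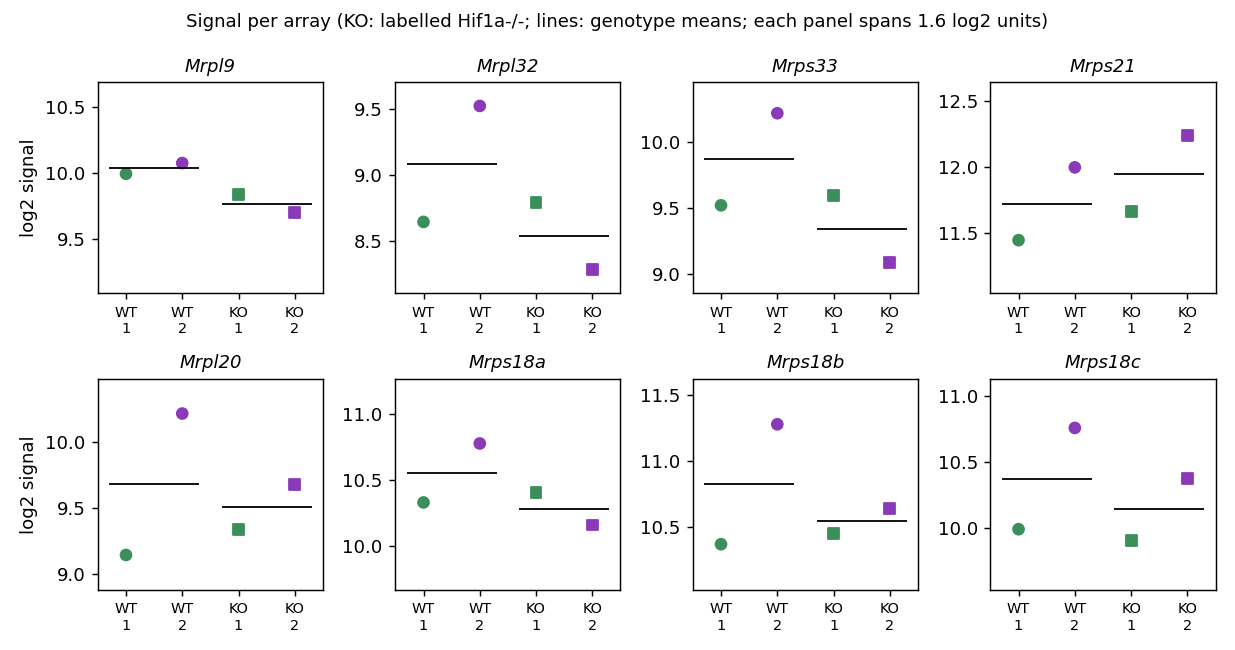
The log2 signal of 8 members is shown in each array, with circles for WT arrays, squares for the arrays labelled Hif1a-/- (KO), green for number 1, purple for number 2, and a line at each genotype mean. All panels span the same range of log2 units. Mrpl9, Mrps18c and Mrps21 differ between the genotypes in the same direction in both numbers. WT array 2 is the highest in every panel but that of Mrps21.

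Over all arrays the medians of the subunits were close to each other, and within each number they lay further apart. The 48 large-subunit members had a median genotype difference of −0.22 over all arrays, with 46 lower, and of 0.19 in number 1 and −0.55 in number 2. The 29 small-subunit members had −0.20, with 27 lower, and 0.07 in number 1 and −0.46 in number 2. Counted by structure and descent, the 30 large-subunit proteins with a bacterial counterpart had 0.20 in number 1 and −0.54 in number 2. The 20 measured large-subunit proteins classed as special to mitochondria, Mrps30 and Mrps18a among them, had 0.19 and −0.62. Among small-subunit proteins, the 16 classed as of bacterial descent had 0.08 and −0.40. The 10 classed as special to mitochondria, Mrps18b among them, had 0.07 and −0.56. Mrps18a and Mrps18b were put in these classes although they are related to a bacterial protein. All of these medians had opposite signs in the numbers, and they are descriptions without a test of the difference between classes.

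The Mrps18 genes encode 3 proteins related to a single bacterial protein, of which Mrps18c is the small-subunit counterpart and Mrps18a sits in the large subunit. Mrps18a read 10.33 (array 1) and 10.78 (array 2) in WT, against 10.40 and 10.16 in Hif1a-/-. WT array 2 was highest and array 2 labelled Hif1a-/- lowest, a mean difference of −0.27 (SE 0.21). Mrps18b had 10.37 and 11.28 against 10.45 and 10.65, and Mrps18c had 9.99 and 10.76 against 9.91 and 10.38. In these both arrays numbered 2 were above both numbered 1, and the mean genotype differences were −0.28 (SE 0.35) and −0.23 (SE 0.34). The related genes thus shared the high WT array 2 but not the place of array 2 labelled Hif1a-/-.

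Members with well-known roles were likewise highest in WT array 2. Mrpl12, which with Mrpl10 belongs to the stalk that recruits translation factors, and which in human cells also binds the mitochondrial RNA polymerase, read 10.29 and 10.87 in WT, against 10.42 and 10.16 in Hif1a-/- (mean difference −0.29, SE 0.25). Mrpl10 had 10.72 and 11.21 against 10.99 and 10.63 (−0.15, SE 0.24). In both, WT array 2 was the highest and array 2 labelled Hif1a-/- the lowest. Mrpl58, a peptidyl-tRNA hydrolase built into the large subunit, had 9.64 and 10.39 against 9.88 and 9.69 (−0.23, SE 0.29), and Mrps36 had 7.72 and 8.90 against 7.84 and 7.97 (−0.40, SE 0.43). For these WT array 1 was the lowest. Mrps12, a protein of the decoding centre, had 8.75 and 8.98 against 8.79 and 8.69 (−0.13, SE 0.14), Mrps2 had 10.37 and 10.52 against 10.47 and 10.12 (−0.15, SE 0.17), and Mrps5 had 10.38 and 10.92 against 10.45 and 10.20 (−0.33, SE 0.24). All 3, which have bacterial counterparts in the small subunit, were highest in WT array 2 and lowest in array 2 labelled Hif1a-/-. Of the members chosen for their low or high mean signal, Mrpl47 had 8.24 and 8.94 against 8.40 and 8.35, and Mrps15 had 10.99 and 11.47 against 11.25 and 11.20, and both were lowest in WT array 1.

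For 8 members a second probe set measured the same gene and was not used in the fits. All 8 second probe sets were higher in the array labelled Hif1a-/- in number 1, 7 of 8 were lower in it in number 2, and 6 of 8 were highest in WT array 2. Both probe sets of Mrpl23 gave −1.22 in number 2, and those of Mrps33 gave −1.13 and −0.92. The probe sets of Mrpl41, a large-subunit protein special to mitochondria, disagreed, as the one used in the fits gave −0.52 in number 2 and the other, at 8.41 to 8.62, gave 0.09. Those of Mrpl51 differed in the number contrast, with 0.44 for the one used and −0.08 for the other.

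Between the replicate numbers no member passed either, although 1344 of all genes did. Of all genes, 3.81% had an adjusted p under 0.05 and were higher in number 2, and 2.93% were lower. Among the members 0 passed in limma in either direction, with a lowest adjusted p of 0.0868. Before adjustment, 9 members had p under 0.05 and were higher in number 2 (11.7%, against 8.94% of all genes) and 0 lower (against 10.6%). In the mean, 68 members were higher in number 2 (88.3%, against 44.6%), with a median of 0.19 log2 units against −0.02 for all genes. That median joined unlike parts, since the WT arrays differed by a median of 0.56, with 75 members higher in number 2, and the arrays labelled Hif1a-/- by −0.16, with 19 higher and 58 lower. Both arrays numbered 2 were above both numbered 1 for 17 members (22.1%, against 20.4% of all genes) and below them for 0 (against 27.2%). Without array 2 labelled Hif1a-/-, which leaves WT array 2 alone against the arrays numbered 1, 53 members passed in limma, all higher (against 13.2% of all genes called higher). Without WT array 2, 10 passed, 3 of them higher (against 8.78%) and 7 lower (against 14.6%). In each of these fits the lone array numbered 2 is assumed to vary like the others.

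**Figure D4:**
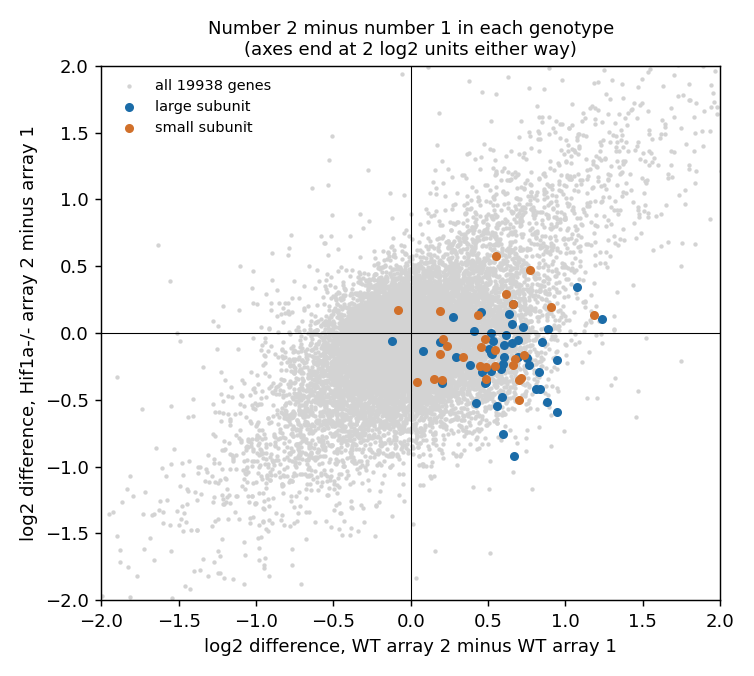
The horizontal axis gives the log2 difference between WT arrays 2 and 1 and the vertical axis that between the arrays 2 and 1 labelled Hif1a-/-, for all genes (grey) and for members of the large (blue) and small (orange) subunit. The members lie right of 0 on the horizontal axis for 75 of 77 genes and below 0 on the vertical axis for 58.

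The members with the smallest p between the numbers were higher in number 2. Mrps18c was higher in the mean by 0.62 (SE 0.16, 95% interval 0.23 to 1.01), with an adjusted p = 0.0868 in limma. Under quantile normalization and cyclic loess it passed (adjusted p = 0.0405 and 0.0336 in limma). Mrps21 was higher by 0.56 (SE 0.14, adjusted p = 0.0868 in limma), by nearly the same amount in the WT arrays (0.55) and in the arrays labelled Hif1a-/- (0.58). Mrpl20, whose bacterial counterpart is needed to assemble the large subunit, read 9.14 (array 1) and 10.21 (array 2) in WT, against 9.34 and 9.68 in Hif1a-/-, and was higher in number 2 by 0.71 (SE 0.20). It differed by 1.07 between the WT arrays and by 0.34 between the others. Mrps24, Mrpl51, Mrps34, Mrpl18 and Mrps18b were 0.46, 0.44, 0.44, 0.39 and 0.55 higher, each with both arrays numbered 2 above both numbered 1.

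Only 9 members were lower in the mean of number 2, and these were flat or split by genotype. Mrps10 read 9.51 (array 1) and 9.55 (array 2) in WT, against 9.52 and 9.15 in Hif1a-/-, a number difference of −0.17 (SE 0.16). It was thus level in 3 arrays and lower in array 2 labelled Hif1a-/-. Mrpl19 had 10.17 and 10.77 against 10.56 and 9.80, and so differed by 0.60 between the WT arrays and by −0.76 between the others. Mrpl23 likewise differed by 0.66 and −0.92, and Mrpl49, special to mitochondria, by 0.42 and −0.52. Mrps2, Mrps6, Mrpl39 and Mrpl24 differed by −0.10, −0.07, −0.08 and −0.09 in the mean. Each was less than its SE of 0.16, 0.17, 0.17 and 0.13. Mrpl9 differed by −0.03 (SE 0.16). Between the WT arrays and then between the others, Mrps2 differed by 0.15 and −0.35, Mrps6 by 0.20 and −0.35, and Mrpl39 by 0.20 and −0.37. For Mrpl24 these were −0.12 and −0.06, and for Mrpl9 0.08 and −0.14. Mrps25, named here after its values were seen, was the member least touched by genotype, with 0.01 in number 1 and −0.01 in number 2 and signals of 9.16 and 9.17 against 9.35 and 9.33 in the numbers.

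Other genes of mitochondrial gene expression are given beside the members, from lists chosen with earlier results of these arrays known. No gene of these lists passed between the genotypes in limma, and none had an unadjusted p under 0.05. Of 4 measured mitoribosomal proteins with other names, Dap3, Ptcd3 and Gadd45gip1 were lower in the mean of the arrays labelled Hif1a-/-. Chchd1, of the small subunit, was 0.06 higher and was the only one of the 4 to pass between the numbers, with 9.44 and 9.46 in number 1 and 9.98 and 10.09 in number 2 (0.58 higher, adjusted p = 0.0395 in limma). Among 13 translation factors all 13 were lower in the mean of the arrays labelled Hif1a-/-, against 49.4% of all genes. Their medians were 0.08 in number 1 and −0.47 in number 2. Mrrf, which recycles mitochondrial ribosomes, differed by −0.62 (SE 0.36) and Mtif3, an initiation factor, by −0.25 (SE 0.17). Among 28 genes of ribosome assembly and ribosomal RNA modification 21 were lower, with medians of 0.10 and −0.28, and among 16 mitochondrial tRNA synthetases all 16 were lower, with 0.03 and −0.29.

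Of 14 measured genes of mitochondrial DNA replication, transcription and RNA processing, none passed between the genotypes. In the mean of the arrays labelled Hif1a-/- 12 of the 14 were lower (49.4% of all genes were), with medians of −0.02 in number 1 and −0.53 in number 2. Tfam, which packs and helps transcribe mitochondrial DNA, read 9.02 (array 1) and 9.33 (array 2) in WT, against 8.99 and 8.50 in Hif1a-/- (−0.43, SE 0.23). Of 10 regulators of mitochondrial biogenesis 3 passed as lower in number 2 (2.93% of all genes did) and 0 as higher (3.81%). Mycn, a Myc-family factor, had 10.41 and 10.42 in number 1 and 9.17 and 8.35 in number 2 (−1.65, adjusted p = 0.0238 in limma). Gabpb1, a subunit of the ETS-family factor GABP, differed by −0.75 (adjusted p = 0.0246 in limma), and Ppargc1a, a coactivator of mitochondrial biogenesis, by −0.59 (adjusted p = 0.0491 in limma). Between the genotypes these regulators had a median of −0.06.

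Genes of the respiratory chain and of protein import also had opposite signs in the numbers, and cytosolic ribosomal protein genes did not. Of 82 subunit genes of the respiratory chain and ATP synthase 71 were lower in the mean of the arrays labelled Hif1a-/- (49.4% of all genes were). Their medians were 0.15 in number 1 and −0.41 in number 2. Of 24 genes of the TOM and TIM import machinery 21 were lower, with 0.10 and −0.40. Of 57 cytosolic ribosomal protein genes 48 were lower, with −0.02 and −0.24. WT array 2 was the highest array for 72 of 82 (respiratory), 19 of 24 (import) and 30 of 57 (cytosolic) of these genes. These are 87.8%, 79.2% and 52.6%, against 27.0% of all genes. These medians are set beside those of the members as descriptions, and the differences between groups were not tested.

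**Figure D5:**
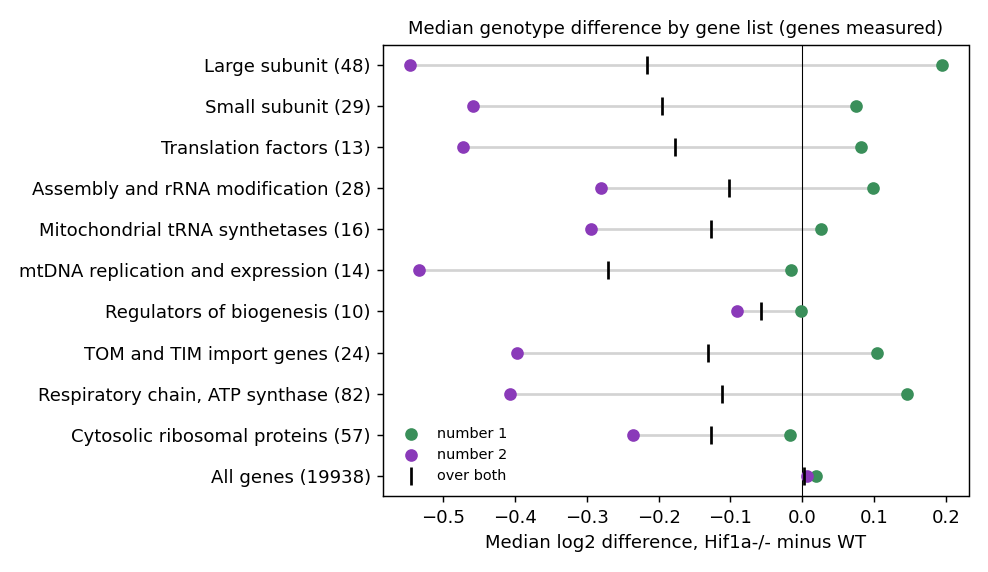
For each gene list the horizontal axis gives the median log2 difference between the array labelled Hif1a-/- and the WT array in number 1 (green), in number 2 (purple) and over both (black bar), with the genes measured in brackets. The large and small subunits reach −0.55 and −0.46 in number 2, and all genes stay near 0 in both numbers.

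Across the 77 members the size of the genotype difference did not follow the signal level closely. The number 2 difference had Pearson's r of 0.11 and Spearman's rho of 0.05 with the mean signal, and r of −0.40 and rho of −0.40 with the number 1 difference. These coefficients are across genes that share the same 4 arrays and are given as descriptions. The medians of members with and without a promoter motif are given for number 2, and their differences were not tested. They were −0.51 with and −0.55 without the ETS motif, and −0.52 and −0.54 with and without the NRF1 core. For the YY1 motif they were −0.66 and −0.52. For ACGTG they were −0.54 with and −0.52 without, for the GC box −0.56 and −0.53, and for the E box −0.54 and −0.53. For CCAAT they were −0.51 and −0.55, and for the TATA box −0.48 and −0.54.

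The members' median in number 2 was nearer 0 after quantile normalization and cyclic loess, and not after median centring. Median centring, which shifts the arrays to the same median, gave −0.54, with 75 members lower and WT array 2 highest for 74. The cause of these shifts was not tested. After quantile normalization, which gives all arrays the same distribution, the number 2 median of the members was −0.35 in place of −0.53, with 73 members lower and WT array 2 highest for 68. After cyclic loess it was −0.37, with 69 lower and WT array 2 highest for 67. The number 1 medians were 0.14 under all of these scalings. Beside this, the neutrophil, mast cell, macrophage and stem cell markers differed between the numbers, as did 2 of 8 T and NK cell markers, as given with the samples. The neutrophil markers were also higher in array 2 labelled Hif1a-/- than in WT array 2, by a median of 0.95 log2 units, in 9 of 13 genes. In number 1 their median was −0.22, and 1 of 13 was higher in the array labelled Hif1a-/-. The B cell markers were higher in the array labelled Hif1a-/- by a median of 1.12 in number 1 and 0.85 in number 2. The part of these cell-type differences in the members' values was not tested.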

How the data were processed

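RNA of sorted bone marrow cells was labelled and hybridised to Affymetrix whole-transcript arrays, per the labels' protocols. Values for 35556 probe sets on 4 arrays were deposited as log2 signals, made with Affymetrix Expression Console 1.1 and RMA per the submitters' processing notes. The sources used here do not give the genome build of the array. Of the probe sets 21789 had 1 gene symbol, 1621 had several and 12146 were not listed in the platform table. The probe set with the highest mean stood for each of 19938 genes. Genotype, and separately replicate number, were fitted over all genes with limma 3.58.1 (lmFit and eBayes, R 4.3.3), with Benjamini-Hochberg adjustment and a threshold of 0.05. The fit was run on simulated data whose noise was independent between arrays. For the genotype contrast these data held no difference between the replicate numbers, so they do not show how the fit performs with such a difference. Depth does not apply to arrays, and 2 arrays per group limit the precision.

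The members and lists were chosen with earlier results of these data known. Genes were named by rule: the 8 smallest unadjusted p-values among the members for each contrast and direction, those with the highest and lowest mean signal, the Mrps18 genes and 7 with known roles, and from each other list up to 2 genes per direction and contrast. No list was tested as a set. Other normalizations, a filter on dim genes, averaged probe sets, another variance model, the replicate block and each array left out were tried.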

Additional observations from a re-analysis of the deposited data

Results flagged for a closer look

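The members differed between the genotypes in opposite directions in the 2 replicate numbers. Their median difference, Hif1a-/- minus WT, was 0.15 log2 units in number 1 and −0.53 in number 2, and 68 of 77 were higher in number 1 and lower in number 2. The large-subunit members had 0.19 and −0.55, and the small-subunit members had 0.074 and −0.46. The difference between the numbers was not tested, because 1 array per genotype and number leaves no residual degrees of freedom.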

How the results depend on the processing

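No gene passed between the genotypes under any alternative, and unadjusted p under 0.05 was counted for 39 to 622 genes. With the replicate number as a block 0 genes passed between the genotypes (478 at an unadjusted p under 0.05), and 1108 genes and 0 members passed between the numbers. The labels do not say that the numbers pair the arrays. The deviations of same-numbered arrays correlated at 0.669 across all genes, from only 2 pairs of arrays. Across the members, the number differences in WT and in Hif1a-/- had Pearson's r of 0.04 and Spearman's rho of 0.02. Between the numbers 1 member passed under quantile normalization and 1 under cyclic loess. Leaving out 1 array at a time gave 319 to 4661 genes and 0 to 53 members called between the numbers, and where a group then had 1 array, that array was assumed to vary like the other group. Without WT array 1, 18 members had an unadjusted p under 0.05 between the genotypes. The same fits put the genotype median of the members between −0.47 and 0.09, of the large subunit between −0.49 and 0.10 and of the small subunit between −0.44 and 0.032. For the number contrast the ranges were −0.10 to 0.48, −0.11 to 0.49 and −0.081 to 0.46.

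Genotype signs turned with an array left out for Mrps21 (−0.059 to 0.52), Mrps16 (−0.065 to 0.11), Mrpl18 (−0.30 to 0.33), Mrpl21 (−0.23 to 0.23), Mrps18b (−0.73 to 0.18), Mrps18c (−0.62 to 0.15), Mrpl12 (−0.58 to 0.0013), Mrpl10 (−0.40 to 0.091), Mrpl58 (−0.60 to 0.15), Mrps36 (−0.995 to 0.19) and Mrps2 (−0.32 to 0.025). Mrpl21 was also −0.019 under quantile normalization, −0.0056 under median centring and −0.032 under cyclic loess. Number signs turned for Mrpl24 (−0.19 to 0.0066), Mrpl23 (−0.74 to 0.48), Mrpl19 (−0.56 to 0.40), Mrpl49 (−0.41 to 0.31), Mrps10 (−0.37 to 0.033), Mrps2 (−0.30 to 0.10), Mrpl39 (−0.30 to 0.13) and Mrps6 (−0.30 to 0.15). The cause was not tested. With 2 arrays per group and no detection calls in the table, small differences and dim genes are measured with little precision.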
